A study of Canis lupus familiaris with 4 samples.

Results

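Among 1045 named genes on the arrays, 7 genes of blood vessel growth and endothelium were compared between samples labelled as canine mammary tumours of grade 3, the more malignant, and of grade 1. They are the secreted ligands VEGFA, ANGPT1 and ANGPT2 and the endothelial genes KDR, VWF, SELE and EDNRB. The members were the non-control probes that carry the dog RefSeq mRNA accession of one of these genes, which gave 9 of 43603 probes, 4 for ligands and 5 for endothelial genes. VEGFA and SELE had 2 probes each and the other genes 1. Every one of the 9 was a single spot that was well above background in both grades on all 4 arrays, so all passed the filter on dim probes.

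Each of the 4 two-colour arrays held RNA of both grades. On 2 arrays grade 3 was labelled with Cy5 and grade 1 with Cy3, and on 2 the dyes were the other way round. Nothing in the labels says which arrays share an RNA extract, and all lay on 1 slide, so the p-values below cover only how far 4 arrays differed, a spread that may be technical. By their titles the samples are tumours, but the growth protocol tells of cancer cells kept with monocytes for 72 h or more and then sorted, and the labels leave it unclear which was hybridised.

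In growing vessels VEGFA, a secreted growth factor, acts on endothelial cells through its main signalling receptor KDR. The angiopoietins ANGPT1 and ANGPT2 share the endothelial receptor TEK. ANGPT1, made largely by cells around the vessel, activates it and steadies the vessel wall, while ANGPT2, made by endothelial cells and held in the same storage granules as VWF, mostly opposes ANGPT1 and loosens the wall. VWF is a clotting glycoprotein of endothelium and platelets, SELE an adhesion molecule that activated endothelium shows to leukocytes, and EDNRB the B-type receptor for the vasoconstrictor endothelins, found on endothelium among other cells.

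Values per array are given in a fixed order: replicates 1 and 2 with grade 3 in Cy5, then replicates 1 and 2 with grade 1 in Cy5. A ratio is the log2 of grade 3 over grade 1 after background correction and loess normalization. A level is a normalized log2 intensity in 1 channel, with the SD over 4 arrays, and levels of different probes are not on a common scale. A call is a limma adjusted p under 0.05 over all 35412 tested probes. Replicate 2 with grade 3 in Cy5 stood somewhat apart: its ratios over all tested probes correlated with those of the swapped arrays at 0.718 and 0.693, against 0.841 and 0.826 for replicate 1. Median signals per array were 323.5 to 401 units in grade 3 and 215 to 292 in grade 1, on median backgrounds of 28 to 41.

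ANGPT2, KDR, EDNRB and VWF fell in grade 3, by 1.88-fold, 1.53-fold, 1.44-fold and 1.23-fold. VEGFA fell 1.73-fold by its dimmer probe and did not pass the test by its brighter one. SELE rose 1.26-fold by its brighter probe, on unequal arrays, and did not pass by the other, and ANGPT1 did not pass. Of the 9 probes 5 were lower, 1 higher and 3 not called. Over all tested probes 61.7% were called, 30.5% lower and 31.1% higher, so a share of 66.7% called among these probes lies near the background. By the brightest probe 5 of 7 genes were called (71.4%), against 70.2% of all named genes. One sign on all 4 arrays was seen for 5 probes, against 57.0% of all tested probes, and levels without overlap between grades for 5, against 44.3%. Called with a change of at least 1.5-fold were 3 of the 9 probes, all lower in grade 3, where the background in either direction was 11.4%. KDR lay just past this cutoff and was 1.29-fold lower with median centring in place of loess.

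**Figure D1:**
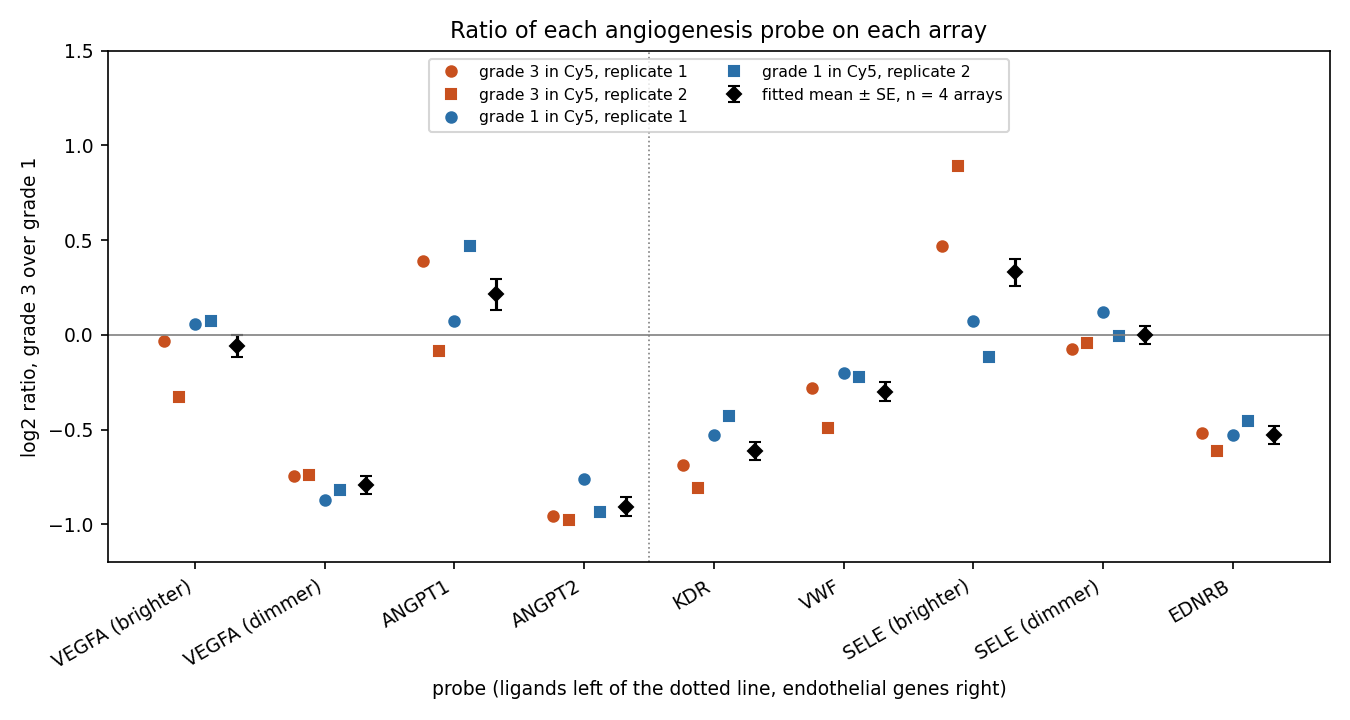
Log2 ratio of grade 3 over grade 1 (y axis) for the 9 probes (x axis), 1 point per array, with the dye orientation as colour and the replicate number as shape. The black diamonds are the fitted means with their SE over 4 arrays; ANGPT2, KDR, VWF, EDNRB and the dimmer VEGFA probe lie under 0 on all 4 arrays.

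ANGPT2 had the largest fall of the 9 probes. Its levels were 9.70, 9.68, 9.75 and 9.65 in grade 3, against 10.66, 10.66, 10.51 and 10.59 in grade 1. The grades did not overlap on any array, and the spread within a grade was small, with means of 9.70 ± 0.04 in grade 3 and 10.60 ± 0.07 in grade 1 (SD, n = 4). Its ratios were -0.96, -0.98, -0.76 and -0.94, close to one another in both dye orientations. The log2 fold change was -0.91 ± 0.05 (SE, n = 4 arrays, limma adjusted p = 3.06e-07), and only 2.35% of tested probes had a lower one.

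ANGPT1, the other ligand of TEK, gave a weak signal. Its median signals were 169 to 259 units in grade 3 and 105 to 155 in grade 1. The levels were 7.68, 7.72, 7.48 and 7.91 in grade 3, against 7.29, 7.80, 7.41 and 7.44 in grade 1, so the grades overlapped. Its ratios were 0.39, -0.08, 0.08 and 0.47, above 0 on 3 of 4 arrays. The log2 fold change of 0.21 ± 0.08 just missed the threshold (SE, n = 4, limma adjusted p = 0.0506). The call turned on single arrays: without replicate 2 with grade 3 in Cy5 it was 0.33 (adjusted p = 0.00387) and without replicate 1 with grade 1 in Cy5 0.31 (0.00838), whereas it reached an adjusted p of 0.308 at most when another array was left out.

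On each array the ratio of ANGPT1 exceeded that of ANGPT2, by 1.35, 0.90, 0.84 and 1.41 log2 units (mean 1.12 ± 0.30, SD, n = 4). No test was made of this difference. A shift common to all probes of an array does not alter it, but loess, which depends on intensity, can. With median centring in place of loess ANGPT1 had 0.23 and ANGPT2 -0.70.

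The 2 VEGFA probes, which carry the same accession, gave different answers. The brighter one, A_11_P0000018814, had levels of 14.94, 14.43, 14.92 and 14.52 in grade 3, against 14.98, 14.76, 14.86 and 14.45 in grade 1. The grades overlapped, the ratios were -0.03, -0.33, 0.06 and 0.07, and the log2 fold change was -0.06 ± 0.06 with a 95% interval from -0.19 to 0.07 (SE, n = 4, limma adjusted p = 0.404). Without replicate 2 with grade 3 in Cy5 it was 0.02 (adjusted p = 0.808), and with median centring in place of loess it was called higher (0.17, adjusted p = 0.0320).

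The dimmer VEGFA probe, A_11_P0000019893, fell. Its levels were 8.14, 8.31, 8.10 and 8.24 in grade 3, against 8.88, 9.05, 8.97 and 9.06 in grade 1, with no overlap. Its ratios of -0.74, -0.74, -0.87 and -0.82 spanned 0.13 log2 units, the narrowest range of the 9 probes. The log2 fold change was -0.79 ± 0.05 (SE, n = 4, limma adjusted p = 4.48e-07). The signal was 8.23 to 12.2 times the local background in grade 3 and 11.4 to 14.4 times in grade 1. The dimmer probe lay below the brighter one on all 4 arrays, by 0.41 to 0.93 log2 units. Which transcripts each probe detects was not analysed here.

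**Figure D2:**
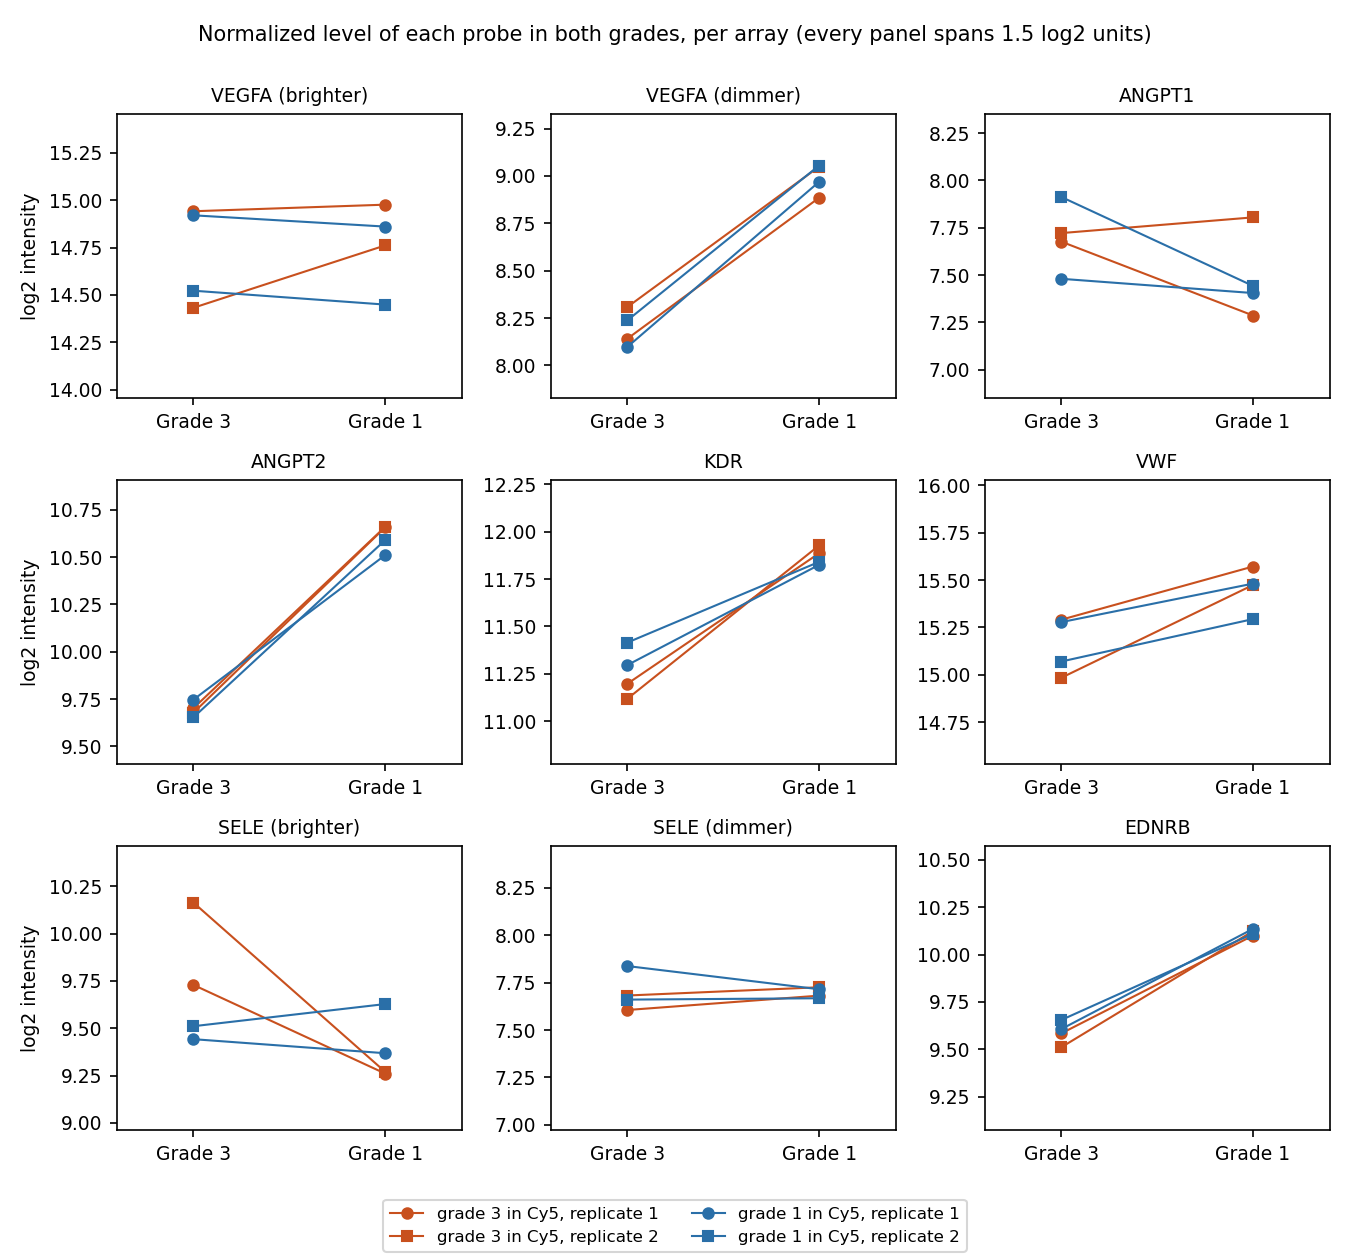
Normalized log2 intensity (y axis) of each of the 9 probes in grade 3 and grade 1 (x axis), with a line joining both grades of 1 array; every panel spans 1.5 log2 units. All 4 lines run upward to grade 1 for ANGPT2, KDR, VWF, EDNRB and the dimmer VEGFA probe, and in both directions for the other 4 probes.

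KDR, the receptor for VEGFA, fell with the ligand ANGPT2. Its levels were 11.20, 11.12, 11.30 and 11.41 in grade 3, against 11.89, 11.93, 11.83 and 11.84 in grade 1, with no overlap. The ratios were -0.69, -0.81, -0.53 and -0.43, lower on the arrays with grade 3 in Cy5 than on the swapped ones. The log2 fold change was -0.61 ± 0.05 (SE, n = 4, limma adjusted p = 3.91e-06), and 5.43% of tested probes had a lower one. With median centring in place of loess it was -0.37 (adjusted p = 0.000108). The ratio of ANGPT2 lay below that of KDR on each array, by 0.17 to 0.51 log2 units. In bulk RNA, fewer cells of a type and less RNA per cell cannot be told apart, for KDR as for the other genes here.

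EDNRB was the most even of the endothelial genes. Its levels were 9.58, 9.51, 9.61 and 9.65 in grade 3, against 10.10, 10.12, 10.14 and 10.11 in grade 1. The grades did not overlap, and the SD over 4 arrays was 0.06 in grade 3 and 0.02 in grade 1. With ratios of -0.52, -0.61, -0.53 and -0.46, the log2 fold change was -0.53 ± 0.05 (SE, n = 4, limma adjusted p = 9.00e-06). Median centring in place of loess gave -0.33 (adjusted p = 0.000245).

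VWF, the clotting glycoprotein, fell by less. Its levels were 15.29, 14.98, 15.28 and 15.07 in grade 3, against 15.57, 15.47, 15.48 and 15.29 in grade 1. The highest value in grade 3 lay just under the lowest in grade 1. The ratios were -0.28, -0.49, -0.20 and -0.22, and the log2 fold change was -0.30 ± 0.05 (SE, n = 4, limma adjusted p = 0.000686). With median centring in place of loess the call was lost (-0.07, adjusted p = 0.283). The ratio of VWF lay above that of KDR by 0.20 to 0.41 log2 units on the 4 arrays.

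SELE, the adhesion molecule of activated endothelium, had the most uneven values. Its brighter probe, A_11_P0000020022, had levels of 9.73, 10.16, 9.44 and 9.51 in grade 3, against 9.26, 9.27, 9.37 and 9.63 in grade 1, and the grades overlapped. The ratios were 0.47, 0.89, 0.07 and -0.12. They averaged 0.68 on the arrays with grade 3 in Cy5 and -0.02 on the swapped arrays, and the dye term of 0.35 was larger than that of 97.8% of tested probes. The log2 fold change was 0.33 ± 0.07 (SE, n = 4, limma adjusted p = 0.00251). The call was lost without a dye term (adjusted p = 0.136), with the scanner's processed signals (0.0605) and with local backgrounds that the scanner software marked as outliers left as measured (0.215, log2 fold change 0.14).

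The dimmer SELE probe, A_11_P052886, did not share the rise. Its levels were 7.61, 7.68, 7.84 and 7.66 in grade 3, against 7.68, 7.73, 7.72 and 7.67 in grade 1. The ratios were -0.08, -0.04, 0.12 and -0.01, and the 95% interval of the log2 fold change ran from -0.11 to 0.11 (limma adjusted p = 0.986). Its median signals of 202 to 223 units in grade 3 and 140 to 184 in grade 1 were near the weakest of the 9 probes.

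**Figure D3:**
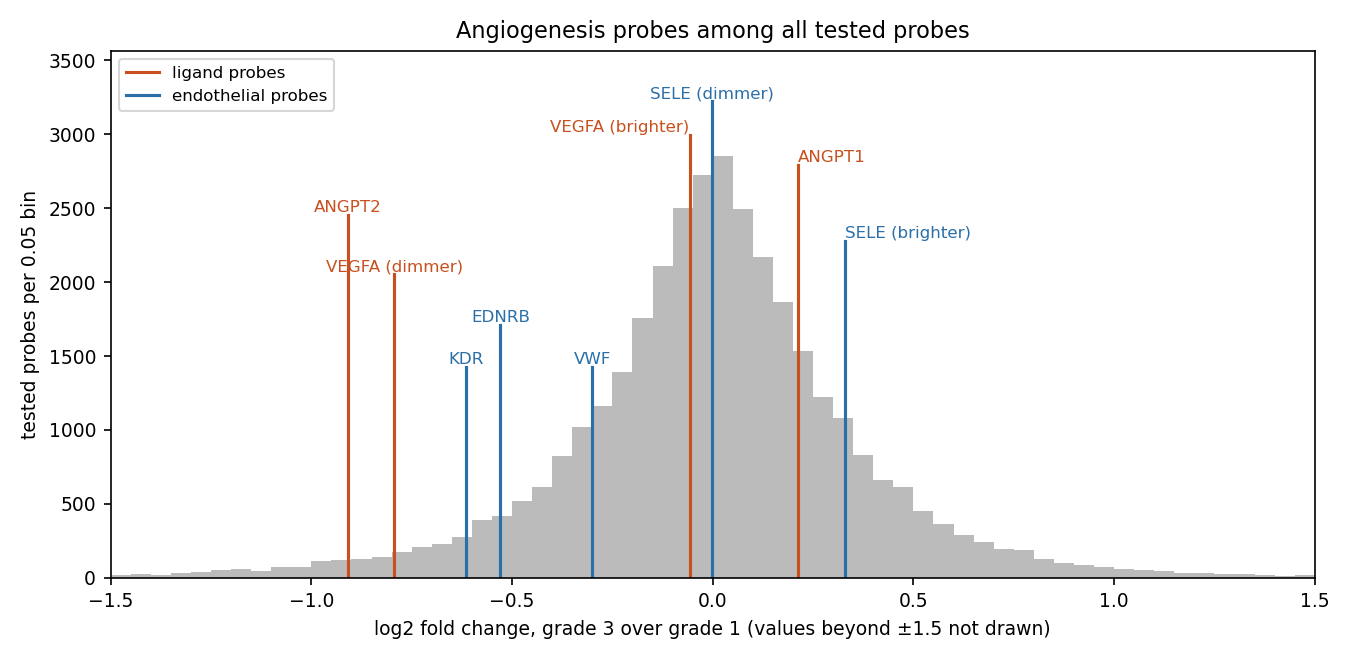
Number of tested probes (y axis) by log2 fold change of grade 3 over grade 1 in bins of 0.05 (x axis), with the 9 probes as lines whose heights carry no meaning. ANGPT2 and the dimmer VEGFA probe lie farthest left, and the brighter SELE probe farthest right.

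The mean ratios of ligands and endothelial genes differed by less than their spread over arrays. With the brightest probe for each gene, the mean ratio of the 3 ligands was -0.20, -0.46, -0.21 and -0.13 on the 4 arrays, and that of the 4 endothelial genes -0.25, -0.25, -0.30 and -0.31. The ligands minus the endothelial genes gave 0.05, -0.21, 0.09 and 0.17, with both signs among the arrays and a mean of 0.03 ± 0.17 (SD, n = 4). Averaging the probes of each gene gave -0.05 ± 0.08. The spread lay inside each group: ANGPT1 and ANGPT2 differed among the ligands, and SELE from KDR among the endothelial genes. The members were chosen with results known, so these means are a description with no test.

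Markers of leukocytes also fell. Of 16 listed macrophage and monocyte genes 6 were tested, of which 5 fell and 1, TLR2, rose by 0.36 on the log2 scale (median of the 6, -0.99). Among all named genes by the brightest probe, 46.1% were lower and 24.1% higher. All 7 tested of 13 leukocyte genes fell (median -0.77). FCGR1A, an IgG receptor of macrophages (2.59-fold lower), CD163 (2.21-fold), S100A8, a calcium-binding protein gene of neutrophils (2.94-fold), and KLRD1 (2.65-fold) were among them. The leukocyte gene MS4A1 was 2.92-fold lower.

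The leukocyte calls depended on the processing. With marked backgrounds as measured 1 of the 7 was called lower (median -0.51), with spike-in scaling 4 lower and 1 higher (median -0.27). KLRD1 and MS4A1 were among those no longer called with marked backgrounds as measured (limma adjusted p = 0.0672 and 0.0769). Of the macrophage and monocyte genes 5 were called lower with marked backgrounds as measured and 4 with spike-in scaling. That scaling centres ratios on spike-in controls in place of loess. The call of TLR2 was lost with marked backgrounds as measured and without a dye term (limma adjusted p = 0.231 and 0.0926). The summed level of the 6 macrophage and monocyte genes was 38046 to 43985 units in grade 3 and 70524 to 79957 in grade 1. Such a sum runs over unlike probes, and CCL2 alone made up 43.5% of it or more in grade 3 and 48.1% or more in grade 1. For the 7 leukocyte genes it was 15023 to 17187 units in grade 3 and 45154 to 48321 in grade 1, but S100A8 alone made up at least 93.2% of it in grade 3 and 95.7% in grade 1. The other 6 summed to 1021 to 1130 units in grade 3 and 1685 to 1932 in grade 1. Of 5 tested of 13 epithelial genes TFF3 (3.62-fold) and MUC1 (2.27-fold) rose, PGR fell, and CLDN3 and ERBB2 were not called. Their summed levels overlapped, at 9142 to 11554 units in grade 3 and 8295 to 9375 in grade 1. CLDN3 alone made up at least 42.7% of the sum in grade 3 and 46.6% in grade 1. None of the marker genes tested was below background in either grade, but some were dim. Mean levels in grade 3 were 6.55 for CD28, 6.89 for MS4A1 and 7.01 for KLRD1, against 13.88 for S100A8. Over the alternatives the log2 fold change ran from -2.24 to -0.81 for KLRD1 and from -2.34 to -0.91 for MS4A1. The part of these markers in the differences of the vascular genes was not tested.

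The directions above are relative to the other probes of the same array. Spike-in controls, added in known amounts, gave another zero. With ratios centred on them in place of loess, the median over tested probes was 0.47, against 0.0045 with loess. Under that scaling KDR, EDNRB and VWF turned to 0.02, 0.06 and 0.32 and the brighter VEGFA probe to 0.56, while ANGPT2 (-0.31) and the dimmer VEGFA probe (-0.29) stayed under 0. Relative to the new median, ANGPT2 had -0.78, the dimmer VEGFA probe -0.76, KDR -0.46, EDNRB -0.42 and VWF -0.16. The share of tested probes below a member was then 2.96% for ANGPT2, 3.25% for the dimmer VEGFA probe, 8.76% for KDR, 10.3% for EDNRB, 32.0% for VWF and 59.7% for the brighter VEGFA probe. With loess these shares were 2.35%, 3.22%, 5.43%, 7.23%, 16.4% and 40.4% in the same order of probes. Median centring, also without loess, gave the same shares as spike-in scaling at this rounding, with a median over tested probes of 0.08. Both scalings shift all ratios of an array by 1 constant, so their equal shares follow from the method and carry no information on the spike-in zero. The shares changed with leaving out loess. VWF and the brighter VEGFA probe were called higher under spike-in scaling (adjusted p = 0.00420 and 2.90e-07), and KDR and EDNRB were not called (0.889 and 0.619).

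**Figure D4:**
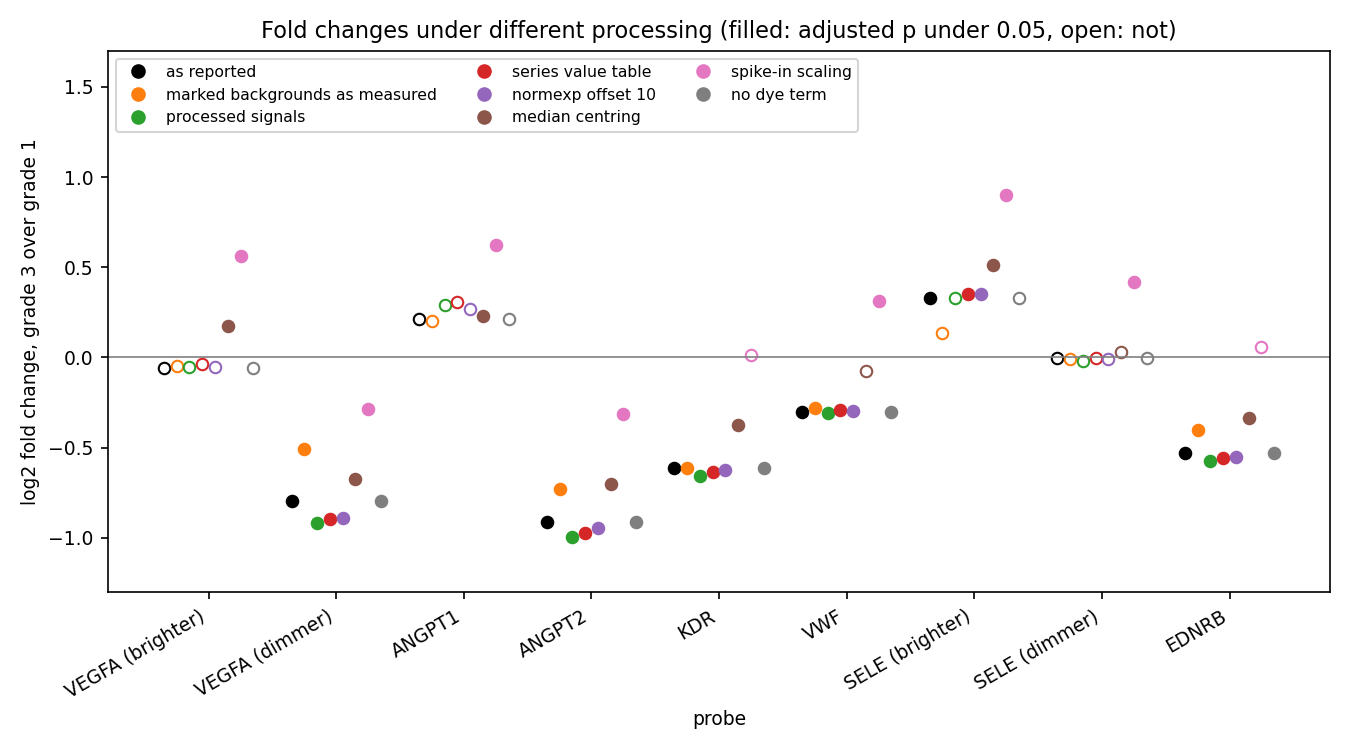
Log2 fold change of grade 3 over grade 1 (y axis) of the 9 probes (x axis) under 8 ways of processing, as colours; filled points have an adjusted p under 0.05. Spike-in scaling puts each of the 9 probes higher than the other settings do, and KDR, EDNRB and VWF then lie above 0.

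Named genes with the most similar ratios over the 4 arrays were looked up among 886 genes well above background in both grades, by Euclidean distance. The nearest to ANGPT2 was PSMB9, an immunoproteasome subunit gene, with a log2 fold change of -0.94 (distance 0.115). The nearest to KDR was HSD11B1 (0.104), to EDNRB the progesterone receptor gene PGR (0.123), and to VWF PDE6G (0.0753). PHB lay nearest to the brighter VEGFA probe (0.0753), RAB4B to ANGPT1 (0.255) and DZIP1 to the brighter SELE probe (0.180). These are likenesses over 4 arrays and no more.

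Other genes of vessel biology went both ways. Of 174 genes in 9 vascular lists 50 were tested, among them the 7 members, and 22 were lower, 14 higher and 14 not called, with a median log2 fold change of -0.09. Among all 925 named genes tested, by the brightest probe, 46.1% were lower and 24.1% higher, with a median of -0.09, so the lists lie near that background. With marked backgrounds as measured 12 were lower and 6 higher, with median centring 20 and 23, with spike-in scaling 7 and 32, and without a dye term 18 and 9. TEK, TIE1, PECAM1 and CDH5, which define endothelium, were not analysed here, and of 7 such markers VWF, KDR and SELE were measured.

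Among 8 tested ligands 3 rose and 3 fell (median 0.08), beside 24.1% higher and 46.1% lower among all named genes by the brightest probe. IGF2, an insulin-like growth factor, rose 2.63-fold and PDGFA and PDGFB, platelet-derived growth factor chains, 1.73-fold and 1.36-fold. ANGPT2, the chemokine gene CXCL12 (1.61-fold) and HGF, a growth factor for epithelium and endothelium (1.32-fold), fell. Of 5 receptors 2 rose and 2 fell (median 0.08): MET, the receptor for HGF, was 2.54-fold higher and FGFR2 1.34-fold, while KDR fell and the integrin subunit gene ITGB3 fell by 0.16 on the log2 scale. PDGFRB, the receptor for PDGFB on pericytes, had 0.08 ± 0.05 (limma adjusted p = 0.163), while its second probe was called lower, at -0.16.

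The calls of PDGFA, PDGFB, HGF, MET and ITGB3 were lost with marked backgrounds as measured (adjusted p = 0.0523, 0.134, 0.0557, 0.0561 and 0.307). With spike-in scaling HGF and ITGB3 turned above 0, and CXCL12 was no longer called (-0.081). The call of ITGB3 was also lost without a dye term (limma adjusted p = 0.113), without either array with grade 3 in Cy5 or without replicate 2 with grade 1 in Cy5. With processed signals ITGB3 had a log2 fold change of -0.69, and PDGFB was 1.69-fold higher.

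Of 10 tested genes of endothelin and vasoactive signalling 7 fell, EDNRB among them, and 1 rose (median -0.28). Among all named genes by the brightest probe 46.1% were lower and 24.1% higher. The median of the list was -0.095 with median centring and 0.29 with spike-in scaling. EDNRA, the A-type receptor, was 1.91-fold lower, with ratios of -0.85, -0.85, -1.09 and -0.93, and its second probe was also called lower, at -0.65. EDN3, an endothelin that acts mainly on EDNRB, was 1.87-fold lower, with ratios of -0.78, -0.72, -0.90 and -1.21. EDN1, the main endothelial endothelin, rose by 0.20 on the log2 scale (adjusted p = 0.0267), but its second probe had -0.07. The cyclooxygenase gene PTGS1 was 1.42-fold lower.

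The call of EDN3 was lost with marked backgrounds as measured (adjusted p = 0.0797), as were those of PTGS1 (0.0649) and EDN1 (0.211). That of EDN1 was also lost without a dye term (limma adjusted p = 0.0784) and on leaving out any 1 array but replicate 2 with grade 3 in Cy5. With processed signals EDN3 was 2.44-fold lower. EDNRA and EDN3 kept their sign with spike-in scaling, and PTGS1 turned to 0.03.

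**Figure D5:**
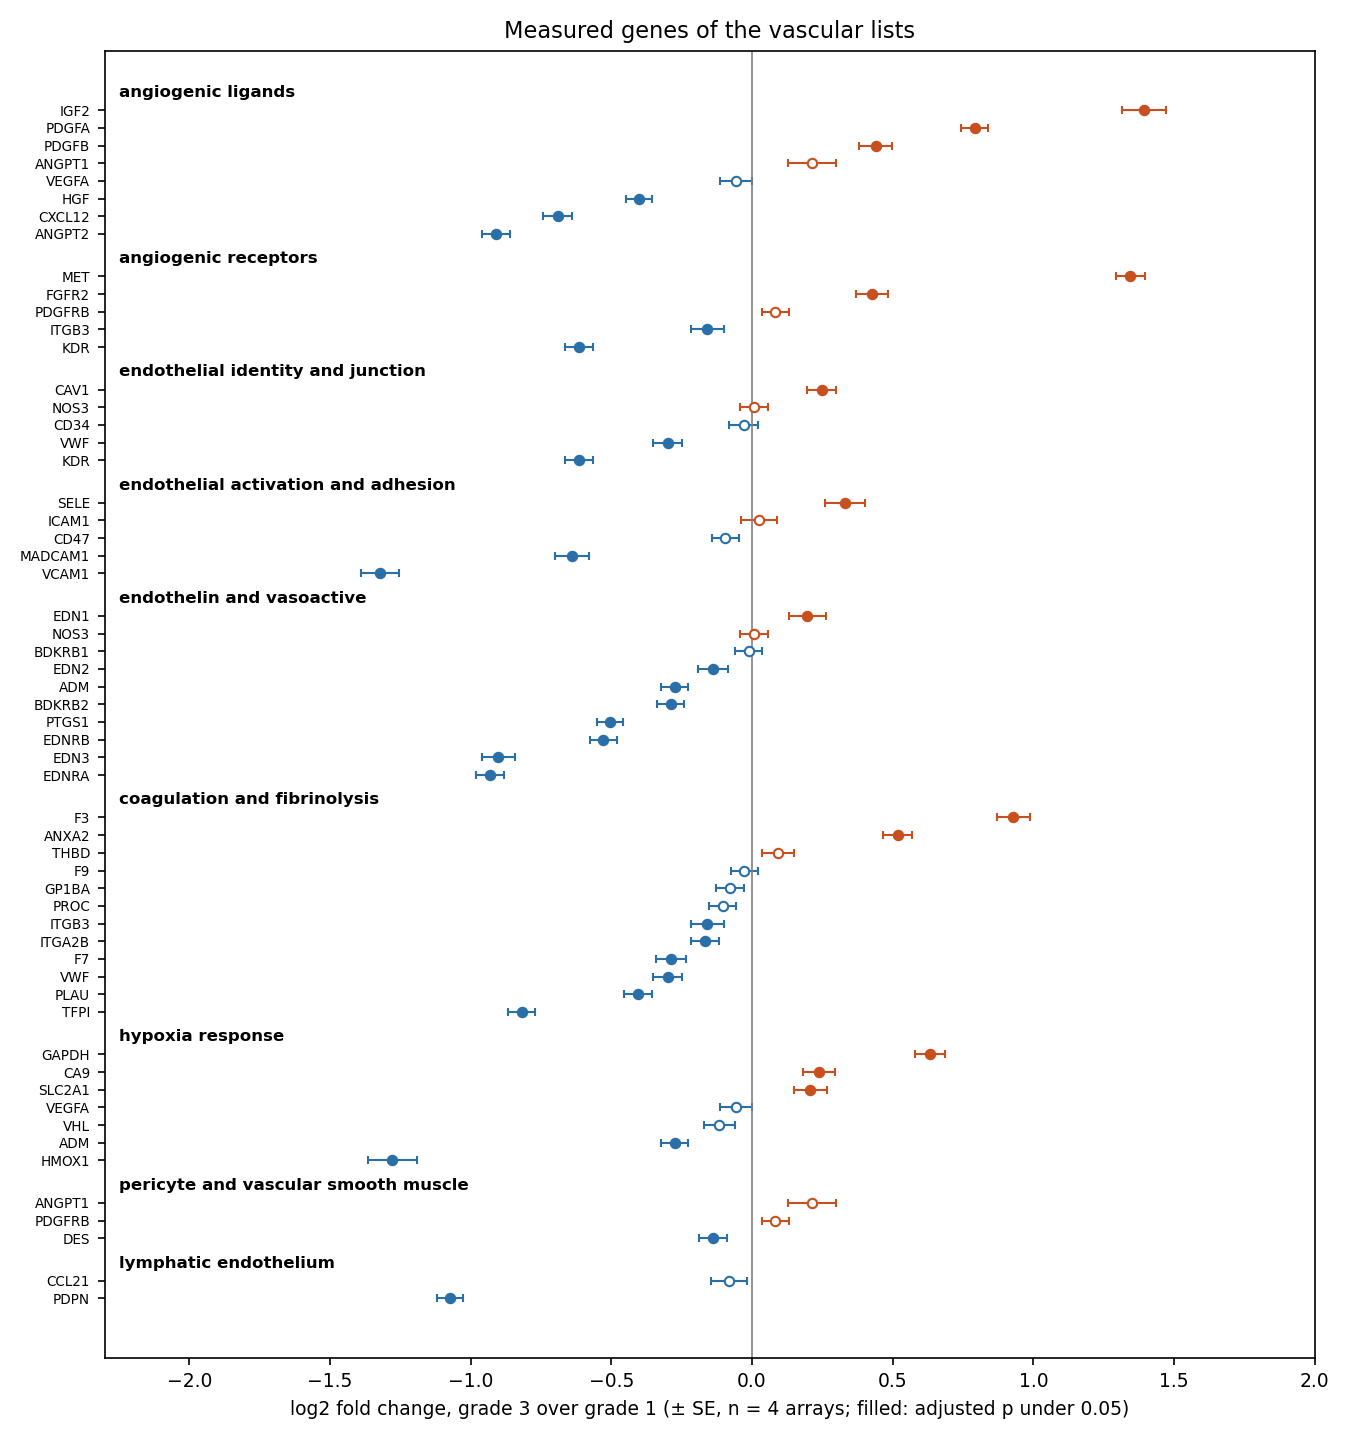
Log2 fold change of grade 3 over grade 1 (x axis, with the SE over 4 arrays) for the tested genes of the 9 vascular lists but 1 (y axis), by its brightest probe; filled points have an adjusted p under 0.05. IGF2 and MET lie farthest right and VCAM1, HMOX1 and PDPN farthest left.

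Adhesion and identity genes of endothelium were split. Of 5 tested adhesion genes 2 fell and 1 rose (median -0.10), beside 46.1% lower and 24.1% higher among all named genes by the brightest probe. VCAM1, which like SELE binds leukocytes on activated endothelium, was 2.50-fold lower, with ratios of -1.25, -1.65, -1.25 and -1.14, and MADCAM1, an adhesion molecule of mucosal vessels, was 1.56-fold lower. MADCAM1 was no longer called with spike-in scaling (-0.014). ICAM1 had 0.03 ± 0.06 (adjusted p = 0.749), while its second probe was called lower, at -0.22. Of 5 identity genes 2 fell and 1 rose (median -0.03). The last was CAV1, a coat protein of caveolae, at 0.25, whose call was lost with marked backgrounds as measured (0.0507) and without a dye term (0.0868). The stem and endothelial marker CD34 had -0.03 ± 0.05 (adjusted p = 0.637), and its second probe was called lower, at -0.15.

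Of 13 tested genes of clotting and fibrinolysis 6 fell and 3 rose (median -0.10). This lies near all named genes by the brightest probe, of which 46.1% were lower and 24.1% higher (median -0.09). F3, tissue factor, was 1.90-fold higher, and ANXA2, a plasminogen receptor, 1.43-fold. TFPI, the inhibitor of tissue factor, was 1.76-fold lower, the plasminogen activator gene PLAU 1.32-fold and F7, the partner of tissue factor, 1.22-fold. With marked backgrounds as measured the calls of PLAU (0.0516) and F7 (0.256) were lost, and with spike-in scaling that of F7 was lost and PLAU turned to 0.15. F7 was dim, with mean levels of 6.34 in grade 3 and 6.63 in grade 1. Its size depended on the background step, at 1.44-fold lower with normexp offset 10 and 2.01-fold with processed signals.

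Genes of the hypoxia list, which holds VEGFA itself, went both ways. Of 7 tested genes 3 rose and 2 fell (median -0.06, the value of the brighter VEGFA probe). Over all named genes by the brightest probe 24.1% were higher and 46.1% lower. GAPDH was 1.55-fold higher, by 7 probes all called higher, CA9 rose by 0.24 and the glucose transporter gene SLC2A1 by 0.21 on the log2 scale. The second SLC2A1 probe had 0.04 and was not called. HMOX1, a heme oxygenase, was 2.43-fold lower, and ADM, a vasodilator peptide gene, 1.21-fold. The calls of CA9 and SLC2A1 were lost with marked backgrounds as measured (0.317 and 0.0992) and without a dye term (0.0984 and 0.191). That of SLC2A1 was also lost with processed signals (limma adjusted p = 0.0536) and without replicate 1 with grade 1 in Cy5 (0.109). ADM turned to 0.36 with spike-in scaling and lost its call with median centring (-0.032). Pericyte and lymphatic genes were few: of 3 tested pericyte genes DES fell by 0.14 on the log2 scale, a call lost without any 1 of 3 arrays. The call of DES was also lost with marked backgrounds as measured (limma adjusted p = 0.574) and without a dye term (0.0920). Of 2 lymphatic genes PDPN, encoding podoplanin, was 2.11-fold lower.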

How the data were processed

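RNA of samples labelled grade 3 and grade 1 was measured on 4 two-colour Agilent arrays. The submitters' processing notes name Agilent Feature Extraction 10.7.3.1 as the reader of the spots. Median signals and local backgrounds were deposited as intensity values, per the file headers. Processed signals are intensity values, background-subtracted and dye-normalized by that software, and LogRatio is the log10 of Cy5 over Cy3, per the file headers. The deposited series table holds log10 ratios that ran as grade 3 over grade 1.

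Ratios were computed on the log2 scale from the deposited median signals in R 4.3.3 with limma 3.58.1. Local backgrounds marked as outliers by the scanner software were set to their array's and channel's median, a step first chosen after earlier counts of calls in these data had been seen. Background was corrected with normexp (offset 50), arrays were normalized by loess, and between 11 and 39 marked spots per array were left out. The fit had a grade and a dye term with eBayes, two-sided, with Benjamini-Hochberg adjustment over the 35412 probes that passed the filter (in 1 grade or both, well above background on every array). Precision is limited by the number of arrays. On simulated data with independent noise and few changed probes, the fit recovered 34 of 50 changes of 1.25-fold and all 50 of 1.5-fold. Such data cannot show how the calls hold where arrays share an RNA extract.

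Probes were named by RefSeq accession through a gene table of the assembly UU_Cfam_GSD_1.0: 1648 of 43603 matched. The brightest probe stood for its gene. From each list, up to 4 called genes per direction are named; 1 gene is in the counts but is not reported here. Members, lists and tests were chosen with earlier results of these data known. Alternatives covered background, normalization, scaling, filter, dye and replicate terms, and each array left out.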

Additional observations from a re-analysis of the deposited data

Results flagged for a closer look

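Ratios of 52 results were searched for 1 array far from the other 3, and 2 were found; chance marks about 1 in 20 groups of 4 independent values. Neither was an angiogenesis gene. For the T cell gene CTLA4 the ratio was -0.57 for replicate 2 with grade 3 in Cy5, while the other arrays gave -0.84, -0.84 and -0.82, a gap of 0.907 of the whole range. For the epithelial gene TFF3 that array gave 1.45 and the rest 1.97, 1.97 and 2.03, a gap of 0.890 of the range.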

How the results depend on the processing

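ANGPT2 and the dimmer VEGFA probe kept their direction and call under all 15 alternatives run on them, with log2 fold changes from -0.99 to -0.31 and from -0.91 to -0.29. KDR and EDNRB did so under 14 of 15. Of 11030 higher and 10802 lower probes, 2328 and 4418 stood in their place with marked backgrounds as measured, and 27827 and 1409 with spike-in scaling; leaving out 1 array gave 9094 to 10971 higher and 9005 to 10798 lower. With median centring 63.9% of calls were higher, in place of 50.5%. Causes were not tested.

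The brighter SELE probe was no longer called with marked backgrounds as measured (0.14), processed signals (0.33) or without a dye term (0.33). Median centring gave VWF -0.073, not called, ANGPT1 0.23 and the brighter VEGFA probe 0.17, both called higher, and the dimmer SELE probe 0.030, not called. Spike-in scaling gave the brighter VEGFA probe 0.56, ANGPT1 0.62, VWF 0.32 and the dimmer SELE probe 0.42, all called higher, and KDR 0.016 and EDNRB 0.056, not called. It turned HGF to 0.11, ITGB3 to 0.066, PTGS1 to 0.030, PLAU to 0.15, ADM to 0.36, DES to 0.14 and PGR to 0.032. Leaving out 1 array gave ANGPT1 0.095 to 0.33, the brighter VEGFA probe -0.13 to 0.016 and the dimmer SELE probe -0.033 to 0.031.

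Vascular genes numbered 6 higher and 12 lower with marked backgrounds as measured, 23 higher with median centring (median 0.019), 32 higher and 7 lower with spike-in scaling (median 0.41) and 9 higher without a dye term.

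Deviations of same-numbered arrays from the mean of their dye orientation correlated at -0.09. This cannot show whether array numbers pair the samples, since noise of single arrays alone would also give a weak correlation. With the replicate block ANGPT1 was called (0.21, adjusted p = 0.0239), as with same-numbered arrays averaged (0.21, 0.00109), and 10922 probes were higher and 10640 lower; no other call of the 9 probes changed under the block. The weakest probes, ANGPT1 and the dimmer SELE probe, had signals of 3.18 to 10.8 and 4.23 to 8.58 times background, which limits them.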

Other observations

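Probes of 1 gene gave unlike answers for a few vascular genes. Of 20 vascular genes with several tested probes, VEGFA and NOS3 had fold changes over 0.5 log2 units apart, and the median gap was 0.16. NOS3, the endothelial nitric oxide synthase gene, had 4 probes at -0.53, -0.09, 0.01 and 0.16, of which the first was called lower (adjusted p = 1.25e-05) and the last higher (0.0141), by limma over all tested probes. The 7 probes of GAPDH lay between 0.53 and 0.65. These genes were singled out after their values were seen.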
